A study of Bos taurus with 56 samples.

Results

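This comparison covers all 57039 peaks of accessible chromatin in cattle morulae derived in vivo and all 372509 peaks in day 14 elongating embryos, 429548 of the 673059 peaks that the 11 lists of the series hold. Peaks of both lists were split into those with a partner in the second list (1 bp in common sufficed) and those found in 1 of the 2 lists only. Overlap joined 28517 in vivo morula peaks to 31450 day 14 peaks, and left 28522 peaks in the in vivo morula list only and 341059 in the day 14 list only. The split used positions alone, so the sizes of these classes describe the lists, and what the classes share beyond it is given as values.

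The series measured chromatin by ATAC-seq, in which a transposase cuts accessible DNA and the cut sites collect into peaks, in 56 cattle (Bos taurus) libraries of oocytes and embryos in 11 groups. The in vivo morulae gave 4 libraries and the day 14 elongating embryos 6, and embryos were pooled for sequencing per the series description. No strain, sire, sex or treatment was given for either group, and only the morulae (and a blastocyst group) carried a statement that they were derived in vivo. The authors merged the libraries of a group into 1 list of chromosome, start and end, so the spread between libraries could not be computed and no p-value is given. Intervals in brackets are 95% exact Clopper-Pearson intervals for a share, which cover counting error only and treat neighbouring peaks as independent. Read depth per library was unknown. No gene was assigned to any peak, so neither stage label was checked against marker genes.

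A morula is the compacted ball of blastomeres that forms after activation of the embryonic genome and before the blastocyst cavity opens. By day 14 the cattle embryo has hatched and is elongating ahead of attachment, and most of its cells belong to the extraembryonic trophoblast, with the embryonic disc forming a small part. Accessible regions include promoters, which tend to be open in many cell types, and distal enhancers, which differ more between cell types.

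The day 14 list was 6.53 times as long as the in vivo morula list but covered only 2.92 times as many bases, because its peaks were narrower. In vivo morula peaks had a median width of 551 bp (quartiles 380 and 917 bp) and covered 42.5 Mb, 1.60% of the 2661 Mb spanned by the lists. Day 14 peaks had a median of 216 bp (quartiles 160 and 363 bp) and covered 124 Mb, 4.66% of the span. The narrowest peak was 268 bp in the in vivo morula list and 125 bp in the day 14 list, so the smallest width admitted differed. Of the day 14 peaks 29.2% were at least 329 bp wide, the median of all peaks in the series, against 87.4% of the in vivo morula peaks. Among peaks of that width the day 14 list was 2.18 times as long, 108850 peaks against 49839.

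Of the in vivo morula peaks, 50% (49.6% to 50.4%) overlapped a day 14 peak, and 8.44% (8.35% to 8.53%) of the day 14 peaks overlapped an in vivo morula peak. In bases, 15.8 Mb lay in both lists, which was 37.2% of the in vivo morula bases and 12.7% of the day 14 bases. The first of these shares can be read against the 4.66% of the span that day 14 peaks covered, a ratio of 7.97. The share of 50% was above that of morulae without the in vivo label (45.8%, 45.5% to 46.1%), 16-cell embryos (40.5%) and 8-cell embryos (37.2%), and also above that of in vivo blastocysts (46.9%, 44.9% to 48.8%), whose list was far shorter. It was below the 59.1% (57.5% to 60.8%) of the other blastocyst list. These lists also differed in peak width, and the ranking was not matched for it. Against a median of 551 bp in in vivo morulae, it was 525 bp in the other morulae. The 8-cell list had 458 bp, the 16-cell list 409 bp, in vivo blastocysts 393 bp and the other blastocysts 230 bp. Only the other morula list was compared by width. In each of 5 width ranges the in vivo morula share was above that of the other morula list, with overlapping intervals in the narrowest. That range took in all peaks up to 358 bp and was not fully matched. Its peaks started at 268 bp in in vivo morulae and at 161 bp in the other morula list. The in vivo morula share there was 30.1% (29.2% to 30.9%) against 28.9% (28.3% to 29.5%). Among peaks of 1043 bp or more it was 78.4% (77.6% to 79.1%) against 71.2% (70.6% to 71.9%).

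Shared peaks were wider than unshared ones in both lists. In vivo morula peaks had a median of 733 bp when shared and 446 bp when found in that list only, and the medians for day 14 peaks were 572 bp and 204 bp. Peaks shared with day 14 thus made up 50% of the in vivo morula list by number and 61.9% by bases, and shared day 14 peaks were 8.44% by number and 18.9% by bases. The classes overlapped widely in width all the same, as 82.4% of the peaks found only in in vivo morulae and 25.4% of those found only at day 14 were at least 329 bp wide.

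**Figure D1:**
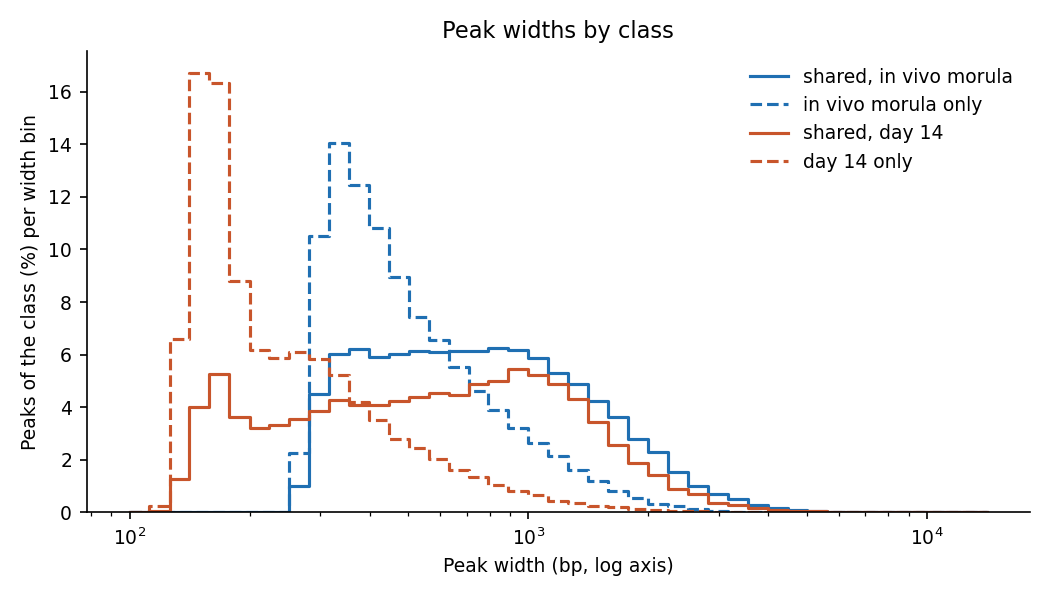
Width distribution of the 4 classes, with peak width in bp on a log axis and the percentage of each class per width bin on the y axis; solid lines are shared peaks, dashed lines peaks of 1 list only, blue the in vivo morula and orange the day 14 list. Peaks found only at day 14 crowd at the narrow end (median 204 bp), whereas both shared classes are broad, with medians of 733 and 572 bp.

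From the narrowest to the widest quintile of in vivo morula peaks, the share found at day 14 went from 30.1% (29.3% to 31%) to 78.4% (77.6% to 79.1%). Among in vivo morula peaks of at least 2000 bp it was 89.5% (88.2% to 90.8%, 1891 of 2112 peaks), and of at least 3000 bp 94.0% (91.3% to 96.1%, 395 of 420). A wide peak has more room for an overlap, so the centre base alone was also looked up. It lay inside a day 14 peak for 22.2% of the narrowest and 55% of the widest quintile, both above the 4.66% of the span in day 14 peaks. In the other direction, 2.00% of the narrowest and 26% of the widest quintile of day 14 peaks were found in in vivo morulae. The centres of the narrowest quintile, 125 to 155 bp wide, fell in in vivo morula peaks in 1.65% of cases (1.56% to 1.74%), against the 1.60% of the span that those peaks covered. For the widest quintile the value was 20.6%.

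Of the day 14 peaks of at least 1000 bp, 51.5% (50.7% to 52.2%) were shared, and of those of at least 2000 bp 60.7% (58.6% to 62.8%). Of in vivo morula peaks of the same minimum widths 77.4% and 89.5% were shared, values set against a day 14 list that covered more of the span.

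**Figure D2:**
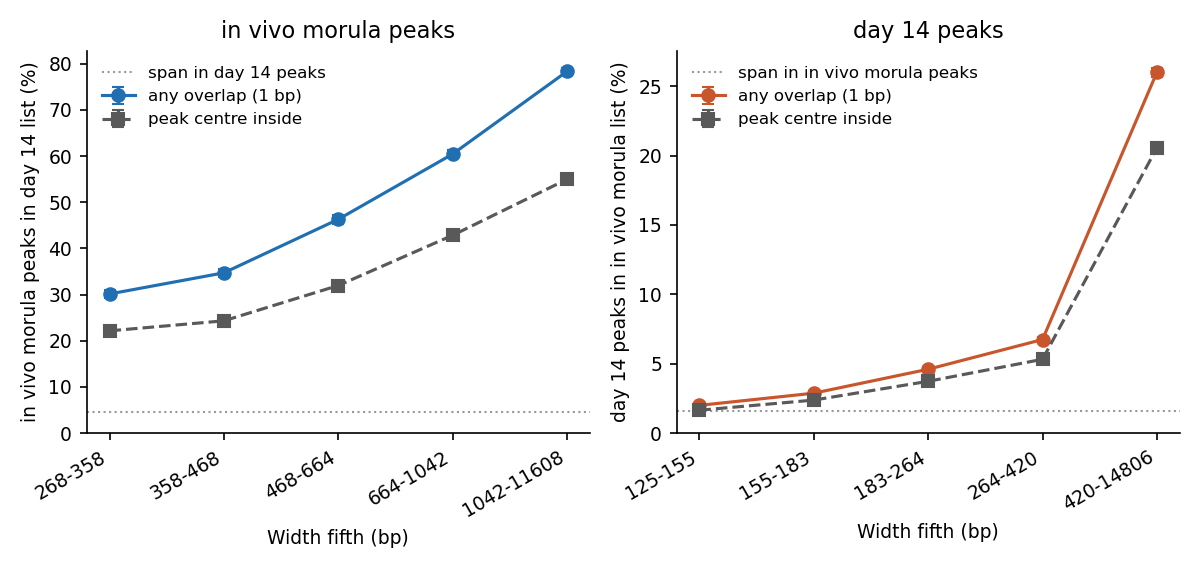
Percentage of peaks found in the other list by width quintile (width ranges in bp on the x axis), for in vivo morula peaks (left) and day 14 peaks (right). Solid lines count any overlap, dashed lines only peaks whose centre lies inside a peak of the other list, bars are 95% exact intervals, and the dotted line is the percentage of the span covered by the other list. Both measures are higher with width, from 30.1% to 78.4% on the left, and the narrowest day 14 peaks lie next to the dotted line.

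Where peaks were shared, the match was mostly between single peaks. Of the shared in vivo morula peaks 87.2% met 1 day 14 peak, 11.3% met 2 and 1.55% met 3 or more, the last group having a median width of 2405 bp. In 22772 pairs each peak was the only partner of the other. In these pairs the in vivo morula peak was the wider in 57.7%, the median widths were 692 bp in in vivo morulae and 634 bp at day 14, and the centres lay a median of 161 bp apart (quartiles 73 and 284 bp). Of the day 14 peaks narrower than 329 bp, 3.54% were shared. The in vivo morula peak with most partners, chosen after its values were seen, lay on chromosome 10 from 86883328 to 86888795 (UMD3.1) and held 7 separate day 14 peaks, which covered 55.2% of its 5468 bp. The reverse was seen on chromosome 17 from 25112953 to 25122770, also chosen after its values were seen, where 1 day 14 peak of 9818 bp spanned 7 in vivo morula peaks.

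The median distance from peaks of the in vivo morula list only to the nearest day 14 peak was 3426 bp, and 13.9% lay within 500 bp. For unshared peaks of the other morula list these values were 3956 bp and 13.2%. For peaks found only at day 14 the nearest in vivo morula peak was a median of 18364 bp away. Within a list, the median gap between neighbours was 15434 bp in in vivo morulae and 1731 bp at day 14.

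The widest shared peak of the in vivo morula list lay on chromosome 17 from 25033165 to 25044772 (11608 bp) and met a single day 14 peak of 14806 bp, from 25029759 to 25044564. The next lay on the same chromosome from 50865764 to 50875640 (9877 bp) with 2 day 14 peaks. Both regions held a peak at every embryo stage listed and in no oocyte list. The next in width, on chromosome 15 from 34211499 to 34218603 (7105 bp), showed another form, with 5 day 14 peaks inside it, none wider than 815 bp. It was held by 5 lists, those of 8-cell and 16-cell embryos, day 14 embryos and the 2 kinds of morula. The widest shared peak found in no other list, on chromosome 8 from 74872587 to 74875749, was 3163 bp wide in in vivo morulae and met a day 14 peak of only 219 bp.

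The 5 widest peaks found in in vivo morulae and not at day 14 were 4274 to 5427 bp wide, and all 5 were also in the list of morulae without the in vivo label. The widest lay on chromosome 17 from 18886691 to 18892117 and was present in 8-cell and 16-cell embryos too, as was the peak on chromosome 4 from 31627989 to 31632262. The peak on chromosome 10 from 60025466 to 60030523 was shared with the 16-cell list. The peak at 24140388 to 24144901 of chromosome 23 was in the 2 morula lists alone, and so was that at 48124320 to 48128646 of chromosome 12. No peak found in in vivo morulae and nowhere else was wider than 1997 bp, the width of the one on chromosome 20 from 15754077 to 15756073, which was looked up after the other values were seen.

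Among peaks found at day 14 and not in in vivo morulae the 5 widest were 6021 to 7488 bp wide. The widest, at 51474440 to 51481927 of chromosome 26 (7488 bp), was in the day 14 list alone. The same held for 49156387 to 49163449 of chromosome 18 (7063 bp), 42767077 to 42773976 of chromosome 15 (6900 bp) and 2116962 to 2122982 of chromosome 14 (6021 bp). The peak on chromosome 28 from 13694490 to 13700599 was also in morulae without the in vivo label. The widest of these day 14 peaks that was present in in vivo blastocysts, on chromosome 17 from 25045585 to 25049841 (4257 bp), was in the other blastocyst list as well. It lay next to the widest shared region described above.

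Peaks shared with day 14 were more often present in every other list of the series, those of the cleavage stages included. Of the shared in vivo morula peaks, 56.7% (56.1% to 57.2%) had a 16-cell peak and 42.1% (41.5% to 42.6%) an 8-cell peak, against 22.2% (21.7% to 22.7%) and 13.2% (12.8% to 13.6%) of those absent at day 14. Given the width distribution of the shared class by weighting, the latter shares became 34.5% and 19.7%. The order held in every width quintile, from 31.4% against 11.4% in the 16-cell list among the narrowest peaks to 79.2% against 55.7% among the widest. Both the 8-cell and the 16-cell list held 10506 of the 28517 shared in vivo morula peaks. Peaks in these 2 lists but not in the in vivo blastocyst list were 35% of the shared class and 9.46% of those absent at day 14. The list of morulae without the in vivo label held 80.9% of the shared in vivo morula peaks and 40.8% of those absent at day 14. In the GV oocyte list the shares were 3.57% and 0.193%, and in the blastocyst list without the in vivo label 2.46% and 0.0947%.

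Day 14 peaks showed the same order over a larger range. Of the shared ones 54.4% had a 16-cell peak and 40.01% an 8-cell peak, whereas of those not found in in vivo morulae 4.34% and 3.14% did. Weighted to the widths of the shared peaks, the latter shares were 8.55% and 5.85%. Of the 341059 peaks found only at day 14, 319518 (93.7%) were in none of the 8-cell, 16-cell and in vivo blastocyst lists, and 303808 (89.1%) were in no other list of the series. This class made up 91.6% of the day 14 list, so these shares largely reflect the list as a whole. Of the shared day 14 peaks, 39.8% were in none of those 3 lists. In the shared class 15.6% were in no list beyond the in vivo morula and day 14 lists. Of the in vivo morula peaks absent at day 14, 74.0% were in none of those 3 lists, and 53.3% (52.7% to 53.9%) were in no other list of the series. Of the shared in vivo morula peaks, 37.7% were in none of those 3 lists. In this shared class 14.6% were in no list beyond the in vivo morula and day 14 lists.

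The in vivo blastocyst list, with 2587 peaks, held few peaks of any class. It contained 2.76% (2.57% to 2.95%) of the shared in vivo morula peaks and 0.347% (0.282% to 0.422%) of those absent at day 14. Read from the blastocyst side, 782 of its peaks (30.2%, 28.5% to 32%) were in both the in vivo morula and the day 14 list, 430 (16.6%) at day 14 only, 100 (3.87%) in in vivo morulae only and 1275 (49.3%) in neither. The 8-cell and 16-cell lists had 20.6% and 22.1% of their peaks in both lists and 6.81% and 9.29% in the in vivo morula list only. In all, 105 of the 57039 in vivo morula peaks were found in every one of the 11 lists, the shortest of which (MII) held 730 peaks.

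The number of other lists that held a peak ordered the shares further. Of in vivo morula peaks in none of the 8-cell, 16-cell and other morula lists, 21.8% (21.3% to 22.4%) were found at day 14. The share was 51.2% for peaks in 1 of these lists, 63.8% for 2 and 81.1% (80.4% to 81.8%) for all 3. Width differed along this order, from a median of 401 bp to 985 bp, but among the narrowest quintile alone the shares still went from 17.6% to 64.4%. For day 14 peaks the share found in in vivo morulae went from 1.62% with none of the 3 lists to 80.9% (80.2% to 81.6%) with all 3. Their median width went from 198 bp to 860 bp along this order, and in the narrowest quintile the share went from 0.711% to 50.1% (44.9% to 55.4%).

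**Figure D3:**
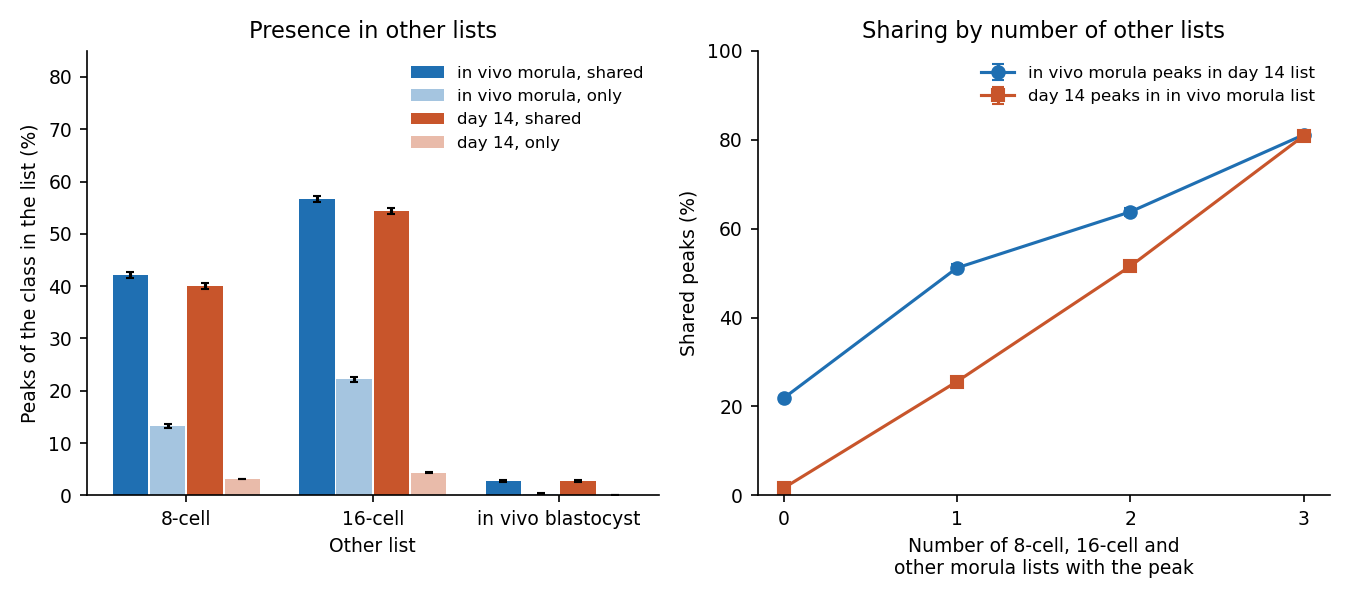
Left, percentage of each class (in vivo morula peaks in blue, day 14 peaks in orange, pale when found in 1 of the 2 lists only) that is present in the 8-cell, 16-cell and in vivo blastocyst lists. Right, percentage of peaks shared between in vivo morula and day 14 by the number of 8-cell, 16-cell and other morula lists that also hold them. Bars are 95% exact intervals. Shared classes stand above the others in each list, and the curves reach 81.1% and 80.9% when all 3 lists hold the peak.

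The lists differed in their spread over chromosomes. Day 14 peaks were concentrated on chromosomes 18, 19 and 25, which are rich in genes, with 2.21 times the density of the rest of the genome, whereas in vivo morula peaks had 1.03 times. The in vivo morula list was also divided by presence at day 14, a division that itself depends on where day 14 peaks are dense. Shared in vivo morula peaks had 1.66 times the density of the rest on these chromosomes, and unshared ones 0.441 times. On chromosome 25, 547 of 668 in vivo morula peaks were found at day 14 (81.9%, 78.8% to 84.7%), on chromosome 19 79.5% (77.3% to 81.5%) and on chromosome 18 74.5% (72.4% to 76.6%). The lowest shares were 37.5% (34.9% to 40.2%) on chromosome 20, 37.6% on chromosome 6, 37.96% on chromosome 9, 37.97% on chromosome 12 and 38.2% on chromosome 1. These neighbours in the order overlapped in their intervals. Where day 14 peaks are dense, overlap is easier. They covered 10.5% of chromosomes 18, 19 and 25 and 4.47% of the other autosomes, and the bases of in vivo morula peaks lay in day 14 peaks in 61.7% and 35.4%. Relative to coverage, these shares were 5.88 times on chromosomes 18, 19 and 25 and 7.92 times on the other autosomes. The largest ratio possible is smaller where coverage is larger, so the 2 values do not rank these places.

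The X chromosome was poor in peaks of both lists. It held 2.17% (2.05% to 2.29%) of in vivo morula peaks and 1.02% (0.992% to 1.06%) of day 14 peaks, against 5.59% of the span. In spite of a day 14 density 0.183 times that of the list, 620 of the 1235 in vivo morula peaks on X (50.2%, 47.4% to 53%) were found at day 14, next to 50% on the autosomes. Day 14 peaks covered 0.862% of X and 34.2% of the bases of its in vivo morula peaks. Of the day 14 peaks on X, 17.4% (16.2% to 18.6%) were in the in vivo morula list, the highest share of any chromosome, against 8.35% on the autosomes. Shared in vivo morula peaks on X were also in the in vivo blastocyst list in 18.5% of cases (15.6% to 21.8%), against 2.59% (2.39% to 2.79%) on the autosomes other than 18, 19 and 25 and 0.88% on these 3. In vivo morula peaks absent at day 14 showed the same order, with 2.76% on X and 0.296% on those other autosomes, and the in vivo blastocyst list itself had 9.43% of its peaks on X. The sexes of the pooled embryos were not given, so the number of X copies behind these values is unknown.

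**Figure D4:**
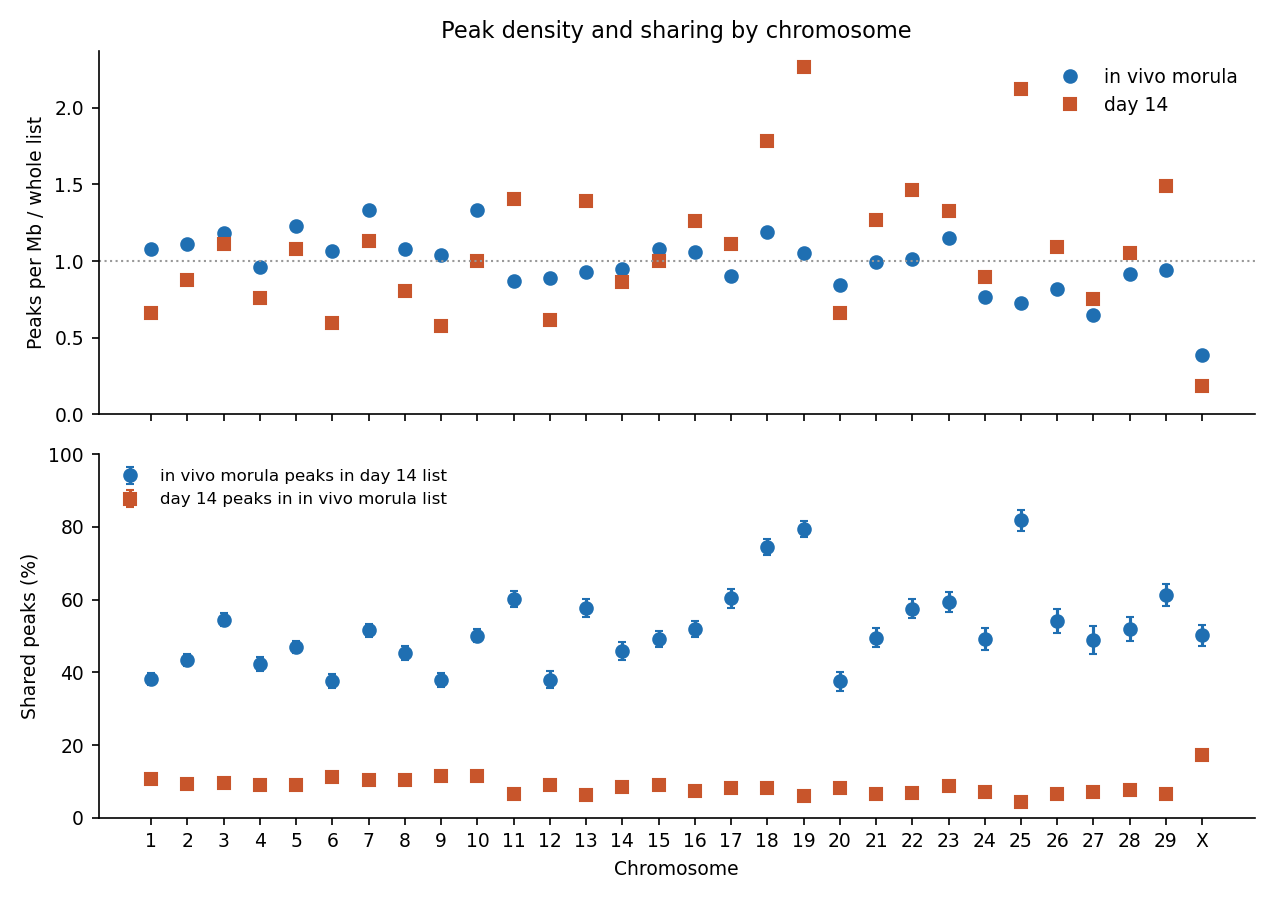
Upper panel, peaks per Mb on each chromosome relative to the list as a whole (dotted line at 1), for in vivo morula (circles) and day 14 (squares). Lower panel, percentage of peaks shared with the other list, with 95% exact intervals. Chromosomes 18, 19 and 25 stand out in day 14 density and in the share of in vivo morula peaks found at day 14 (74.5% to 81.9%), while X is low in both densities and near 50% in the share.

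Along the autosomes, day 14 peaks accumulated toward the last bases. The last 5 Mb of the autosomes held 11.1% of autosomal day 14 peaks, 1.92 times their part of the length, and 3.99% of in vivo morula peaks, 0.691 times. In vivo morula peaks shared with day 14 lay there at 0.943 times and those absent at day 14 at 0.439 times. Overlap is easier where day 14 peaks are dense, so this division is a description only. In the first 5 Mb the values were 0.97 times for day 14 and 0.598 times for in vivo morula peaks.

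Peak density was then counted in windows of 1 Mb. In vivo morulae had a median of 18 peaks per window (0 to 128) and day 14 embryos 89 (0 to 832). The 267 fullest of the 2678 windows held 25.9% of the in vivo morula peaks and 33.8% of the day 14 peaks. Across the windows the counts had a Pearson r of 0.43 and a Spearman rho of 0.55, both descriptive because windows share mappability and base composition. The in vivo morula counts followed those of the other morula list (r = 0.87), the 16-cell list (0.79) and the 8-cell list (0.69) more closely than those of day 14. With the in vivo blastocyst list, which had 2587 peaks for the 2678 windows and so few per window, their r was 0.093. Day 14 counts had an r of 0.52 with the 16-cell list, 0.47 with the other morula list and 0.41 with the 8-cell list. With the sparse in vivo blastocyst list it was -0.051. By Spearman rho the order differed in part. Day 14 counts had 0.60 with the 16-cell list, 0.55 with in vivo morulae, 0.53 with the other morula list and 0.44 with the 8-cell list. With the in vivo blastocyst list rho was -0.24.

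A window was called rich in a list when it held at least 2 times as large a share of that list as of the other, with 1 peak added to each count. Windows were tested when the mean of both counts, with day 14 scaled to the length of the in vivo morula list, was at least 10. Of 1916 windows tested, 559 (29.2%) were rich in in vivo morula peaks and 352 (18.4%) in day 14 peaks. Since the windows were picked by these counts, the difference between the 2 lists in them is a description only. So is the share of their in vivo morula peaks found at day 14. Chromosome 19 had 35 of 56 tested windows rich in day 14 peaks and chromosome 25 had 26 of 34, and neither had a window rich in in vivo morula peaks. Chromosome 6 had 51 of 81 windows rich in in vivo morula peaks, chromosome 1 had 58 of 107 and X had 17 of 33, and no tested X window was rich in day 14 peaks.

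The other lists played no part in picking the windows. Windows rich in in vivo morula peaks were 20.9% of all windows and those rich in day 14 peaks 13.1%, the shares that an even spread over windows would give. The 8-cell, 16-cell and other morula lists had 23.8%, 23.5% and 26.4% of their peaks in the windows rich in in vivo morula peaks and 11.5%, 12.7% and 11.5% in those rich in day 14 peaks, values near an even spread for the 8-cell and 16-cell lists. In the in vivo blastocyst list the shares were 35.9% (34.1% to 37.8%) and 5.18% (4.36% to 6.11%), and in the other blastocyst list 26.9% and 10.01%. GV oocytes lay on the side of day 14, with 12.0% (11.01% to 12.96%) and 26.5% (25.2% to 27.8%), and so did 2-cell embryos, with 17.3% and 21.9%. The 4-cell shares were 20.1% and 16.4%. In MII oocytes they were 15.6% (13.1% to 18.5%) and 16.2% (13.57% to 19.04%), the first below and the second above an even spread. Among in vivo morula peaks, 74.99% of those in windows rich in day 14 peaks were shared with day 14 and 35.4% of those in windows rich in in vivo morula peaks. These windows were picked by the counts of the 2 lists, and overlap is easier where day 14 peaks are dense.

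**Figure D5:**
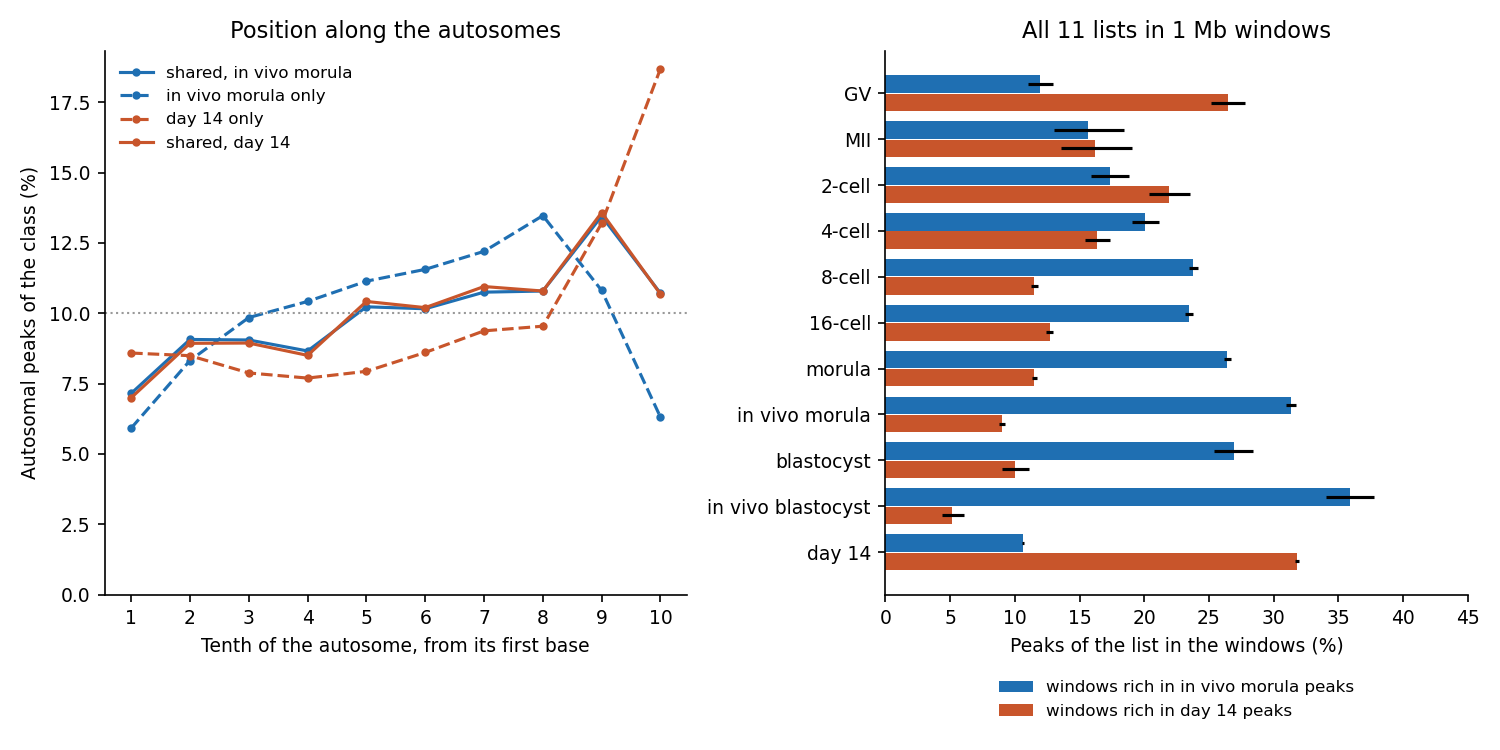
Left, percentage of the autosomal peaks of each class per decile of autosome length, counted from the first base (dotted line at 10%). Right, percentage of the peaks of each of the 11 lists that lie in 1 Mb windows rich in in vivo morula peaks (blue) or in day 14 peaks (orange), with 95% exact intervals. Peaks found only at day 14 climb to 18.7% in the last decile, where in vivo morula peaks absent at day 14 drop to 6.31%, and GV oocytes are the list nearest to day 14 on the right. The last decile is the densest in day 14 peaks, which makes overlap easier there.

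Windows of 1 kind lay side by side. The 559 windows rich in in vivo morula peaks formed 283 runs, and 396 of them lay in runs of 2 or more. The longest runs were looked up after the window values were seen. One of 13 Mb on chromosome 7, between 88 and 101 Mb, held 475 in vivo morula and 713 day 14 peaks, and 26.5% of the former were found at day 14. The same stretch held 276 peaks of the 8-cell, 406 of the 16-cell and 621 of the other morula list. Those lists had 59186, 75925 and 88858 peaks in all, against 57039 in the in vivo morula list. The longest runs rich in day 14 peaks were both 8 Mb long, between 113 and 121 Mb on chromosome 5 with 100 in vivo morula and 3522 day 14 peaks, and in the first 8 Mb of chromosome 11 with 89 and 2090. In the run on chromosome 5, picked for its excess of day 14 peaks, 86 of the 100 in vivo morula peaks were shared.

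The 5 windows with the highest share of in vivo morula over day 14 peaks lay on chromosome 12 (61 to 62, 40 to 41 and 67 to 68 Mb) and chromosome 1 (125 to 126 and 62 to 63 Mb). The window on chromosome 12 from 61 to 62 Mb had 22 in vivo morula and 11 day 14 peaks, a ratio of shares of 12.5, and 1 of the 22 was shared. The window on chromosome 1 from 125 to 126 Mb had 47 and 26, with 6 of the 47 shared. It held 19, 31 and 53 peaks of the 8-cell, 16-cell and other morula lists. The 5 windows at the opposite end lay on chromosomes 5 (117 to 118 Mb), 11 (104 to 105 and 106 to 107 Mb), 22 (60 to 61 Mb) and 23 (14 to 15 Mb). They held 1 to 5 in vivo morula and 215 to 785 day 14 peaks. Every in vivo morula peak in these 5 windows overlapped a day 14 peak. The windows were picked for their excess of day 14 peaks, which makes overlap easier. The window on chromosome 11 from 104 to 105 Mb, with 5 in vivo morula and 785 day 14 peaks, had 15, 33 and 24 peaks in the 8-cell, 16-cell and other morula lists.

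Sharing followed the local density of day 14 peaks but was above coverage in each quintile of windows. In the quintile of windows poorest in day 14 peaks (0 to 30 per window), 16.9% (15.9% to 18%) of in vivo morula peaks were shared, and 11.9% of their bases lay in day 14 peaks that covered 0.434% of the windows. In the richest quintile (231 to 832 per window), 73.3% (72.6% to 74%) were shared, and 55.2% of bases lay in day 14 peaks covering 13.6%. The richest quintile held 54.1% of day 14 peaks and 29.5% of in vivo morula peaks.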

How the data were processed

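The authors worked on genome build UMD3.1 with Bowtie2 2.3 and with MACS2, HOMER and bedtools, per the submitters' processing notes, and per the series description peaks of the libraries of a stage were merged. Not given in the sources used here were thresholds, the merging rule and read depth. The deposited lists hold 3 columns, chromosome, start and end, with no score. Starts were read as counting from 0, which the files do not state, and are printed from 1.

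Overlaps were computed with Python 3.11.15 and numpy 2.4.6. Counts equalled those of bedtools 2.31.1, and planted overlaps were recovered in 3 of 3 simulations. With 1 merged list per group no test across libraries was run. No annotation of UMD3.1 was used, so peaks carry no gene and no sequence. The comparison, members and lists were chosen with earlier results of these data known. Regions were named by rule (the 3 widest shared peaks, the 5 widest of each unshared class, the widest with a given presence in other lists, and the 5 windows with the largest ratio of shares each way), and others are said to be chosen after their values were seen. Alternatives changed the overlap, widths, joining and window size.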

Additional observations from a re-analysis of the deposited data

How the results depend on the processing

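Alternatives were run for the shares of shared peaks, the ratios of number and length, the densities of chromosomes 18, 19 and 25 and of X, the counts of rich windows and the differences in presence. None of these changed direction, but sizes moved. Chromosome ends, the other lists in rich windows and the density quintiles had no alternative. Sharing on X, the order by number of lists and the comparison with the other morula list were split by width only. The share of in vivo morula peaks found at day 14 (50%) was 22.0% when 50% of both peaks had to overlap. With both lists cut to peaks of at least 329 bp it was 41.0%, but 52.8% for such in vivo morula peaks against the whole day 14 list. The share was 57.0% with peaks widened by 250 bp, 50.8% with peaks less than 500 bp apart joined, and 31.3% against only the widest day 14 peaks. The share of day 14 peaks found in in vivo morulae (8.44%) was 3.37%, 19.2% (both lists cut), 10.8%, 9.56% and 30.4% under the same settings. The ratio of peak numbers (6.53) was 2.18 among peaks of at least 329 bp and 2.57 with day 14 peaks at least as wide as the narrowest in vivo morula peak, and the ratio of covered lengths (2.92) was 1.80 among peaks of at least 329 bp. At that width and with joined peaks, the day 14 density ratio of chromosomes 18, 19 and 25 was 2.64 and 1.94, and the share of day 14 peaks on X was 1.10% and 1.15%. With 2 Mb windows, 182 of 1253 tested (14.5%) were rich in day 14 peaks and 417 (33.3%) in in vivo morula peaks.

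Differences in presence between shared and unshared peaks are in percentage points. For in vivo morula peaks in the 8-cell list (28.9) they were 32.6 with 50% overlap, 33.2 at 329 bp or more and 22.4 weighted to widths. In the 16-cell list (34.5) they were 36.0 at 329 bp or more and 22.2 weighted, and in the in vivo blastocyst list (2.41) 3.23 with 50% overlap. For day 14 peaks the same 3 settings gave 48.5, 43.3 and 34.2 in the 8-cell list (36.9) and 59.6, 55.5 and 45.9 in the 16-cell list (50.1). In the in vivo blastocyst list (2.65) the first 2 settings gave 3.81 and 3.001. The cause of these moves was not tested.

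No paired analysis was possible because each group had 1 merged list, and leaving out single libraries was not possible either. Without read depth, absence of a peak from a list cannot be told apart from lack of detection.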
